A study of Mus musculus with 16 samples.

Results

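A set of 10 genes of mouse chromosome 3 that lie in or beside the epidermal differentiation complex was followed through RNA-seq of colon organoids: Tchh, Hrnr, Sprr1a, S100a1, S100a6, S100a10, S100a11, S100a13, S100a14 and S100a16. They are 10 of the 54123 genes in the tables. The set was chosen from measured values, because Tchh and Hrnr had been seen to rise after Cdx2-sgRNA in distal organoids. The guide differences of the 10 genes in distal cultures are therefore given as a description with no test. Genes outside the set were tested there. All 10 passed the filter on low counts, which left 15289 genes for testing. Hrnr passed it only through the distal Cdx2-sgRNA libraries in WENR-minus medium.

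There were 8 groups of 2 libraries. Organoids came from the first 1.0 cm of the colon (proximal) or the last 1.0 cm of the descending colon (distal), received a lentivirus with Cas9 and either a control guide (Scramble-sgRNA) or a guide against Cdx2 (Cdx2-sgRNA), and were collected in WENR-plus or WENR-minus medium. WENR-plus holds the niche factors Wnt3a, EGF, Noggin and R-spondin-1, and WENR-minus lacks all of them. All groups carried a heterozygous Cre-inducible BrafV600E allele, with no Cre step given for these libraries, and a heterozygous tdTomato reporter, and the donors were female mice 8 weeks old. Organoids were selected with blasticidin for 2 weeks, and in the 4th month of culture they had 2 days in WENR-plus followed by 3 days in the final medium. The 2 replicates of a group came from independent mice, and the sources do not state that a number marks the same mouse in every group. Each Cdx2-sgRNA culture was a clone, started from 1 cell and kept only with a frameshift in both Cdx2 alleles, and no such single-cell step is given for Scramble-sgRNA, so the guide and clonal growth cannot be told apart, nor can the clone and the mouse.

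The epidermal differentiation complex is a run of genes for proteins of the outer, dead layers of skin and of other squamous epithelia. Small proline-rich proteins such as Sprr1a and loricrin are cross-linked by transglutaminases into the cornified envelope beneath the plasma membrane. The fused-type S100 proteins trichohyalin (Tchh), hornerin (Hrnr), repetin and filaggrin join an S100-type calcium-binding start to long repeats and organise keratin filaments, trichohyalin being best known from the hair follicle. The short S100 genes flank the complex and encode small EF-hand calcium sensors, several of which are made throughout the gut epithelium. Cdx2 is a homeobox transcription factor that keeps intestinal epithelium in its intestinal state.

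In GENCODE annotation on GRCm38, read from the lower to the higher coordinate, the genes lie at chr3:90511034-90514392 (S100a1, minus strand), chr3:90514435-90524581 (S100a13, plus), chr3:90526856-90528837 (S100a14, plus), chr3:90537254-90543151 (S100a16, plus), chr3:90612882-90624181 (S100a6, plus), chr3:92483952-92485895 (Sprr1a, minus), chr3:93319749-93333570 (Hrnr, plus), chr3:93442330-93449077 (Tchh, plus), chr3:93520488-93526287 (S100a11, plus) and chr3:93555080-93564643 (S100a10, plus). Sprr1a, Hrnr and Tchh therefore sit inside the run of skin genes, with a block of S100 genes on each side.

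The sequences upstream of 4 of these genes are shown because the genes moved in different ways across the groups. They were read 5′ to 3′ on the gene's strand from the RefSeq promoter table for GRCm38.p6, which held 8 of the 10 genes. Capitals mark every match on either strand to TTTAT, a core of the Cdx recognition sequence, to TGANTCA, the AP-1 site, and to TATAAA, the TATA box, in which the reverse complement of TTTAT is contained.

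Tchh, chr3:93442080-93442329, plus strand: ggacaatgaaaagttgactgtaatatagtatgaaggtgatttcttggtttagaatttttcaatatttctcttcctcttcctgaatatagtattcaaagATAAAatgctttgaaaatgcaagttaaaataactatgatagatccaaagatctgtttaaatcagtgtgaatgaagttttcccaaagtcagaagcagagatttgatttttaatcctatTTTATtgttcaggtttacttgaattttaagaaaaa

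Hrnr, chr3:93319499-93319748, plus strand: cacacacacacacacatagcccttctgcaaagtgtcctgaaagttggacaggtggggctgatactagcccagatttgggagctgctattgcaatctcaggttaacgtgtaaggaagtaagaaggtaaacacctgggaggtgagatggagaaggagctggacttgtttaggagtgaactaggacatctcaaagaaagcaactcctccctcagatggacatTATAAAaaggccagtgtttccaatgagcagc

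Sprr1a, chr3:92485896-92486131, minus strand: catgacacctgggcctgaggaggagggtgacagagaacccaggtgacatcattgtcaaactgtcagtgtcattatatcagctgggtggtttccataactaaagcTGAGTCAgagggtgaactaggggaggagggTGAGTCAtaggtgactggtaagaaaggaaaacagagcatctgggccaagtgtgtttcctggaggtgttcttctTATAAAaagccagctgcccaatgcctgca

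S100a11, chr3:93520246-93520487, plus strand: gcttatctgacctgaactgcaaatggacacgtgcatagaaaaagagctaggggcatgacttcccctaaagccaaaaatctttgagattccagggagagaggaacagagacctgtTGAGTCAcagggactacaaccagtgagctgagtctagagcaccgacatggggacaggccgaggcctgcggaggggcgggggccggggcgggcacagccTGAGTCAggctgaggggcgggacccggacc

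The Tchh window of 250 bases is AT-rich, with 27.6% G and C, and holds 2 matches to TTTAT. Hrnr and Sprr1a each have a TATA box match, ending 25 and 23 bases before the end of the window. Sprr1a has 2 matches to TGANTCA and so has S100a11. Of the 32851 windows in the table, 37.3% held TTTAT, 6.75% TGANTCA and 12.4% TATAAA. Of the 9 windows of members, shown or not, 4 held TTTAT, 3 TGANTCA and 2 TATAAA. A match describes the letters only and is not a measured binding site.

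The libraries held 12465194 to 18922143 counts, with a median of 16836530, and mitochondrial ribosomal RNA took 15.4% to 28.0% of them. Levels are given below as CPM, counts scaled to the library's effective size, replicate 1 before replicate 2. Cdx2 itself, the targeted gene, stood at 141.6 and 127.1 CPM in proximal Scramble-sgRNA WENR-plus and at 29.9 and 33.3 in proximal Cdx2-sgRNA WENR-plus, and the pair of groups in WENR-minus stood at 202.6 and 151.0 against 73.9 and 71.0. In distal organoids it stood at 76.8 and 67.9 in Scramble-sgRNA against 62.3 and 50.2 in Cdx2-sgRNA in WENR-plus, and at 112.4 and 110.0 against 126.3 and 86.1 in WENR-minus. The Cdx2 transcript was thus lower after the guide in proximal organoids (in WENR-plus the log2 fold change was −2.09, SE 0.21, edgeR adjusted p = 5.5e-05; in WENR-minus it was −1.29, SE 0.20, adjusted p = 0.000679) and was not called in distal ones (−0.36 and −0.07). A frameshift need not lower a transcript, so the RNA does not check the distal label.

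All 8 markers of colon epithelium had reads in every group, which fits the tissue label. Squamous markers had a summed level of 1530 and 1480 CPM in proximal Cdx2-sgRNA WENR-minus and of 263 and 340 in proximal Cdx2-sgRNA WENR-plus. The other groups lay between 3.62 and 78.2 CPM. Krt4, a keratin of stratified mucosa, made up 1468 and 1465 CPM of the highest sums, while Krt5 and Dsc3 were at 0 reads in those libraries and Trp63, the regulator of basal squamous cells, did not pass 0.254 CPM in any library. Krt14, a keratin of basal squamous cells, had 775 and 208 reads in proximal Cdx2-sgRNA WENR-minus against 4 and 2 in Scramble-sgRNA, and 50 and 50 reads in distal Cdx2-sgRNA WENR-minus against 1 and 2. Of 6 markers of the inner root sheath, the hair follicle layer whose cells make trichohyalin, only Gata3 passed the filter. The sum of the 6 ran from 1.24 to 33.2 CPM, highest in proximal Scramble-sgRNA WENR-minus at 33.2 and 19.8, of which Gata3, a factor of other epithelia too, gave 32.7 and 19.3. In distal Cdx2-sgRNA WENR-minus the sum was 8.46 and 5.35 CPM. The sheath keratins Krt71 and Krt25 had 0 reads in all 16 libraries. The fibroblast markers Dcn and Lum also had 0 reads everywhere. Summed over their lists, fibroblast markers reached at most 1.12 CPM, endothelial markers at most 2 CPM and leukocyte markers 0.154 to 10.2 CPM. The sum of the 4 leukocyte markers was highest in proximal Cdx2-sgRNA, at 6.31 and 10.2 CPM in WENR-minus against 1.43 and 0.625 in Scramble-sgRNA. Cd68 was called higher in that comparison (2.99, SE 0.71, edgeR adjusted p = 0.00853). Cd3e and Lyz2 were at 0 reads in the Cdx2-sgRNA group, and Ptprc and Cd3e in the Scramble-sgRNA group, so Lyz2 went the other way.

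Tchh was at or below 2.35 CPM in every Scramble-sgRNA library and highest in the distal Cdx2-sgRNA libraries without niche factors. Read counts in proximal Scramble-sgRNA were 23 and 29 in WENR-plus and 16 and 45 in WENR-minus, and in distal Scramble-sgRNA 6 and 14, then 5 and 10. In proximal Cdx2-sgRNA they were 35 and 312 in WENR-plus and 46 and 1043 in WENR-minus, so that the clone of replicate 2 was far above that of replicate 1 in both media. In distal Cdx2-sgRNA they were 140 and 52 in WENR-plus and 1405 and 1447 in WENR-minus, or 118.9 and 121.0 CPM, and there both clones gave nearly the same level. The lowest distal Cdx2-sgRNA library, at 2.75 CPM, lay close above the highest Scramble-sgRNA library, at 2.35 CPM. These distal libraries chose the gene, and how many genes separate in this way was not counted.

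Hrnr was almost silent. It had 0 reads in all 4 proximal Scramble-sgRNA libraries, where a count of 0 allows up to 3 reads per library, and 1 read in 1 of the 4 distal Scramble-sgRNA libraries. Proximal Cdx2-sgRNA had 0 and 1 reads in WENR-plus and 0 and 6 in WENR-minus. Distal Cdx2-sgRNA had 10 and 0 reads in WENR-plus and 222 and 35 in WENR-minus, or 18.8 and 2.93 CPM. The last group is the only one in which both replicates lay above 3 reads, and its replicates differed more than those of Tchh in the same libraries.

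Sprr1a, a cornified envelope precursor, was low in every WENR-plus library and higher in every WENR-minus library. Its levels with niche factors were 6.12 and 6.10 CPM in proximal Scramble-sgRNA, 9.63 and 5.66 in proximal Cdx2-sgRNA, 12.6 and 5.00 in distal Scramble-sgRNA and 20.8 and 17.9 in distal Cdx2-sgRNA. Without them the levels were 122 and 57.8, 230 and 532, 135 and 56.8, and 376 and 267 CPM in the same order. The 4 Cdx2-sgRNA libraries in WENR-minus were all above the 4 Scramble-sgRNA libraries in that medium.

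**Figure D1:**
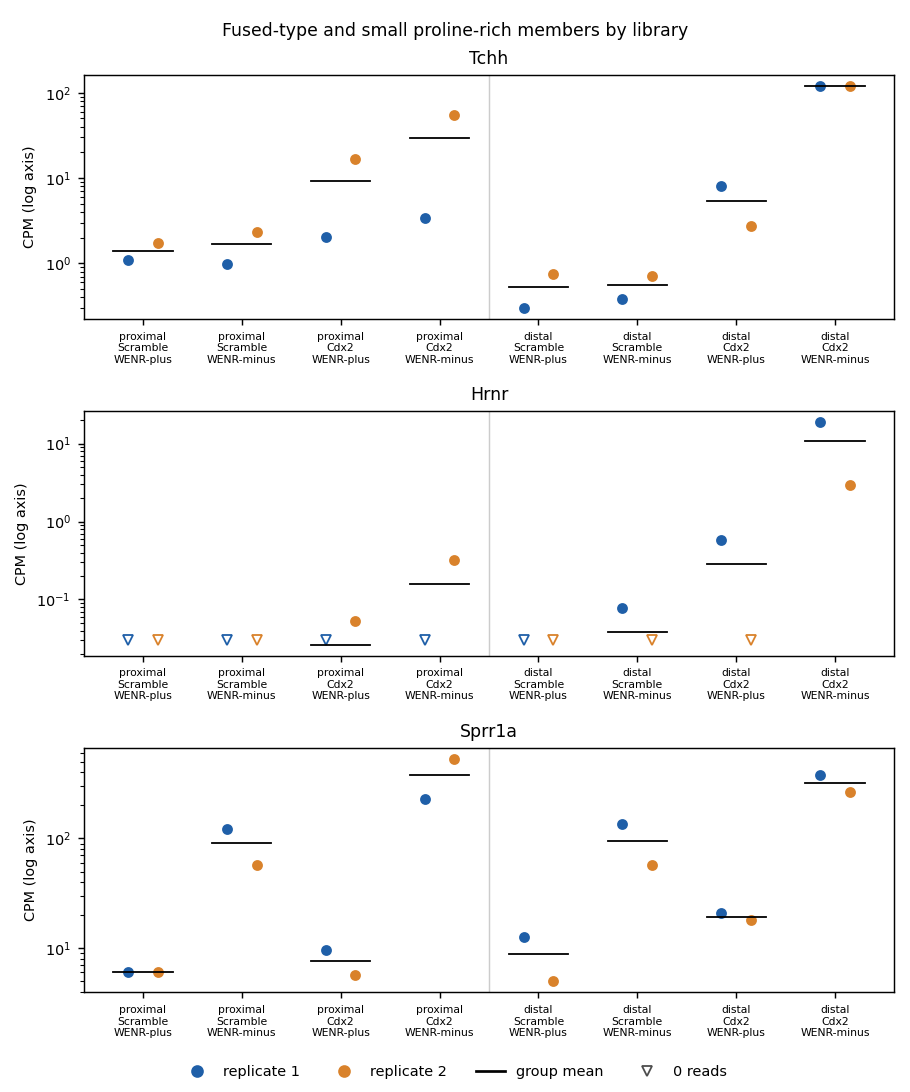
Level of Tchh, Hrnr and Sprr1a in each of the 16 libraries, in CPM on a log axis, by group. Blue and orange points are replicates 1 and 2, the line is the group mean, and an open triangle at an arbitrary low position stands for 0 reads. Tchh is near 119 to 121 CPM in distal Cdx2-sgRNA WENR-minus and at or below 2.35 in the Scramble-sgRNA libraries, Hrnr passes 3 reads in both replicates only there, and Sprr1a is high in all WENR-minus groups.

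Levels were compared between genes per length, in TPM, a unit that divides reads by transcript length, and the order of the S100 members differed between groups. S100a10, the light chain that forms a tetramer with annexin A2 at the membrane, had a mean of 3250 TPM in proximal Scramble-sgRNA WENR-minus, and S100a6 had 1988 TPM there. S100a11 followed with 1391, S100a1 with 518, S100a14 with 405, S100a16 with 236 and S100a13 with 18.8 TPM. Sprr1a stood at 206 TPM, close to S100a16, and Tchh at 0.398. In distal Cdx2-sgRNA WENR-minus the first places were S100a6 with 2348 TPM and S100a10 with 2281, which lie within the spread of their replicates, followed by S100a14 with 769, Sprr1a with 584, S100a16 with 559.5, S100a11 with 529, S100a1 with 497.5, S100a13 with 30.1, Tchh with 21.1 and Hrnr with 1.03 TPM.

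S100a10 in CPM stood at 351 and 380 in proximal Scramble-sgRNA WENR-plus and at 1159 and 1134 in WENR-minus. In proximal Cdx2-sgRNA the order of the media was the other way round, with 1094 and 739 in WENR-plus and 637 and 356 in WENR-minus. Distal Scramble-sgRNA went from 286 and 240.2 to 1045 and 729.9, and distal Cdx2-sgRNA from 334 and 361 to 1205 and 834. Proximal Cdx2-sgRNA was thus the only pairing of region and guide in which S100a10 was lower in both libraries without niche factors than in both with them.

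S100a1, a calcium sensor best known from muscle, gave a similar picture at a lower level. It was 54.9 and 55.8 CPM in proximal Scramble-sgRNA WENR-plus and 197 and 166 in WENR-minus, against 112 and 89.9 and then 96.4 and 55.6 in proximal Cdx2-sgRNA. Distal Scramble-sgRNA went from 69.2 and 54.2 to 230 and 200.4, and distal Cdx2-sgRNA from 68.6 and 68.4 to 240.4 and 214. The media overlapped only in proximal Cdx2-sgRNA.

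S100a6, or calcyclin, was higher without niche factors in every pairing. Its levels with and then without them were 162 and 164 against 621 and 559 CPM in proximal Scramble-sgRNA, 309 and 199 against 577.5 and 655 in proximal Cdx2-sgRNA, 159.9 and 147 against 514 and 452 in distal Scramble-sgRNA, and 139 and 199 against 689.8 and 943 in distal Cdx2-sgRNA. S100a16, one of the most widely made S100 proteins, stood at 33.4 and 30.5 against 133 and 91.8 CPM in proximal Scramble-sgRNA and at 43.4 and 19.6 against 63.3 and 46.7 in proximal Cdx2-sgRNA. In distal organoids S100a16 stood at 51.5 and 48.3 against 175 and 157 with Scramble-sgRNA and at 69.3 and 58.2 against 348 and 331 with Cdx2-sgRNA. The distal Cdx2-sgRNA libraries in WENR-minus were the highest of all 16 for S100a16, and also for S100a6.

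S100a14, an S100 protein of epithelia, ran from 48.4 CPM in proximal Scramble-sgRNA WENR-plus to 379 CPM in distal Cdx2-sgRNA WENR-minus. Proximal Cdx2-sgRNA stood at 140.1 and 79.6 CPM in WENR-plus and at 169 and 186 in WENR-minus. S100a13, which takes part in the unconventional release of FGF1, was the least abundant S100 member. It had 0.851 to 2.03 CPM in the 8 WENR-plus libraries and 2.97 to 14.98 CPM in the 8 WENR-minus libraries, so the media did not overlap.

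S100a11, which interacts with annexin A1, differed from the others by region. Distal levels stayed between 119 and 160.3 CPM in all 8 libraries, whatever the guide or medium. Proximal Scramble-sgRNA stood at 152 and 135 CPM in WENR-plus and at 381 and 269 in WENR-minus. Proximal Cdx2-sgRNA stood at 244 and 246, then at 339 and 490.3 CPM. Every proximal library in WENR-minus was above every distal one.

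**Figure D2:**
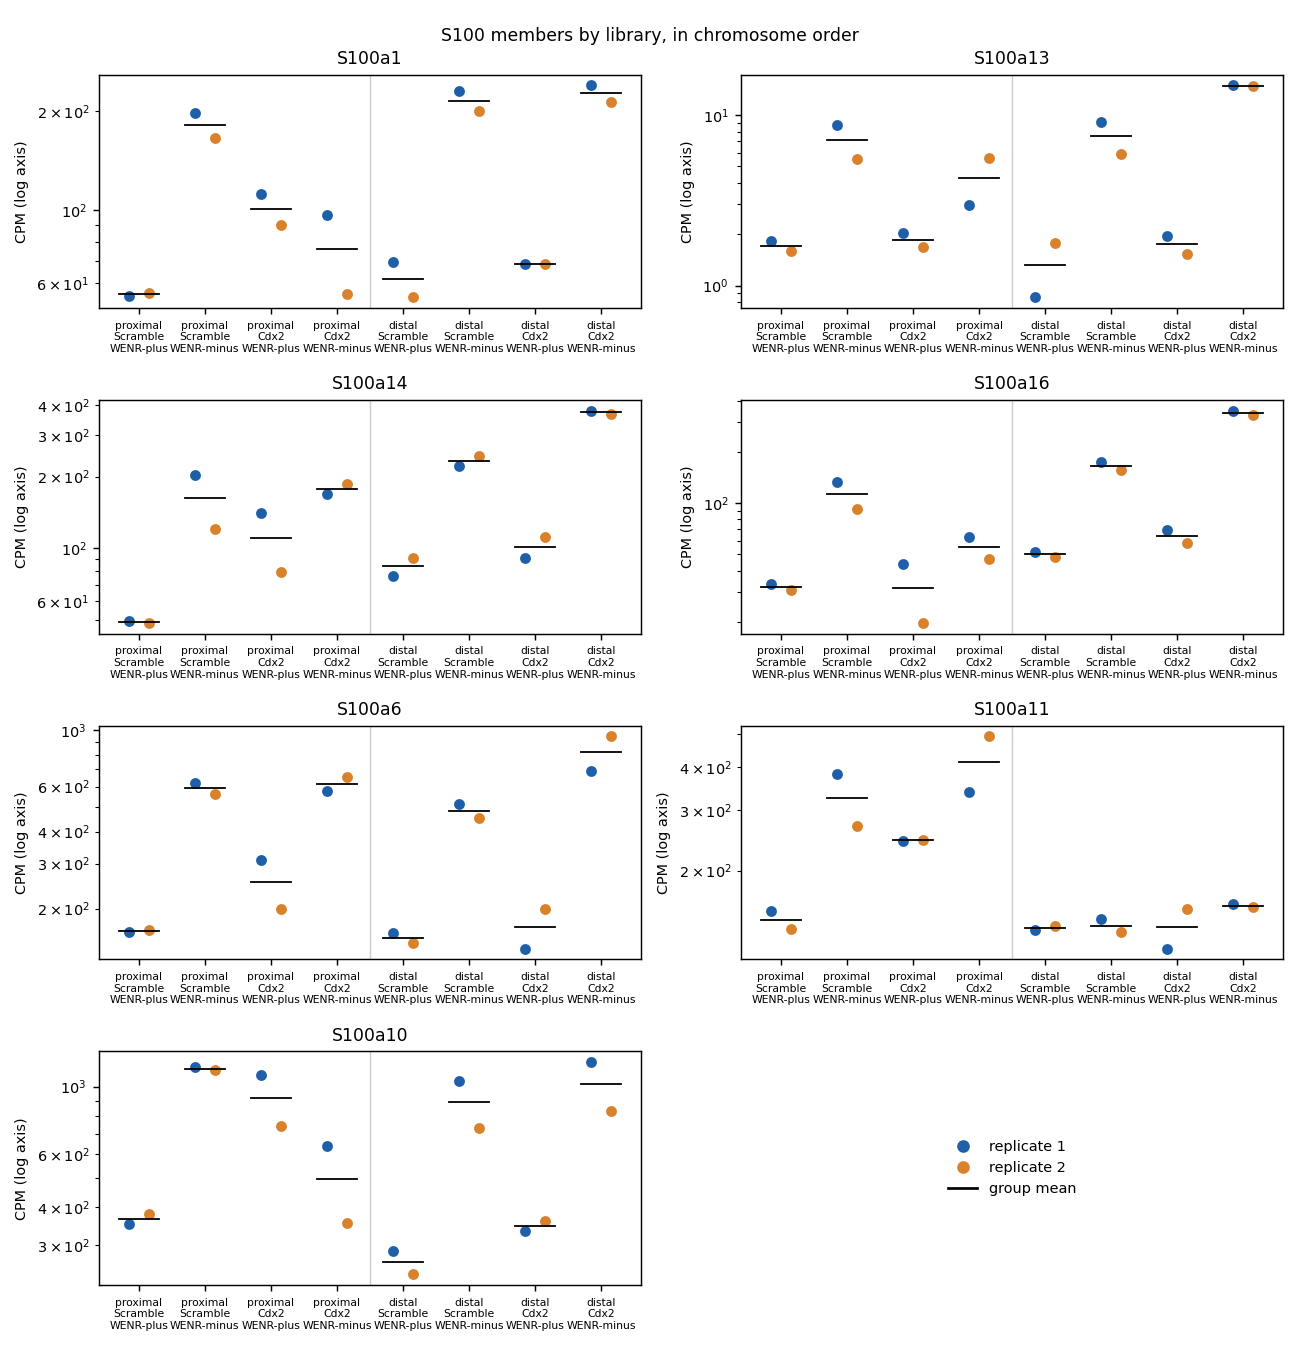
Level of the S100 members in each library, in CPM on a log axis, by group. Blue and orange points are replicates 1 and 2 and the line is the group mean. S100a10 and S100a1 are lower in proximal Cdx2-sgRNA than in proximal Scramble-sgRNA in WENR-minus but higher in WENR-plus, S100a11 is flat at 119 to 160.3 CPM in distal organoids, and S100a16 is highest, at 348 and 331 CPM, in distal Cdx2-sgRNA WENR-minus.

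Removal of the niche factors asks how these genes behave when the organoids are left to differentiate. In proximal Scramble-sgRNA organoids 8 of the 10 genes were called higher and none lower, at an edgeR adjusted p under 0.05 and a change over 2-fold, where 17% of all genes were called in either direction. The median log2 fold change of the 8 genes other than Tchh and Hrnr was 1.77, beside −0.06 over all genes. Sprr1a rose most (14.7-fold, log2 3.88, SE 0.62, adjusted p = 0.00123). The S100 genes rose by 1.18 (S100a11, SE 0.21, adjusted p = 0.00205) to 2.05 (S100a13, SE 0.42, adjusted p = 0.00432) on the log2 scale. Tchh did not pass (0.28, SE 1.27, adjusted p = 0.899) and Hrnr had 0 reads in both media. In these bulk libraries more cells of one kind and more RNA per cell cannot be told apart.

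In distal Scramble-sgRNA organoids 7 of the 8 members tested were called higher, with a median of 1.74 against −0.11 over all genes, of which 26.4% were called. Sprr1a rose 10.9-fold (log2 3.44, SE 0.60, adjusted p = 0.00101), S100a13 by 2.51 (SE 0.43, adjusted p = 0.000877) and S100a1 by 1.80 (SE 0.24, adjusted p = 0.000194). S100a11 was the exception, at 0.02 (SE 0.21, adjusted p = 0.949). The difference between regions in the withdrawal effect was called for none of the 8 members (0.0719% of all genes were called, 1 of the 8 at an unadjusted p under 0.05, and DESeq2 called 1). That gene was S100a11, at 1.16 on the log2 scale (SE 0.29, edgeR adjusted p = 0.238), and with a replicate block by culture it was called (1.14, adjusted p = 0.0489).

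In distal Cdx2-sgRNA organoids the same 7 genes were called higher, with a median of 2.08, where 33.1% of all genes were called and their median was −0.10. Sprr1a rose 16.6-fold (adjusted p = 0.000248), S100a13 by 3.09 on the log2 scale (SE 0.43, adjusted p = 0.00015) and S100a16 by 2.41 (SE 0.32, adjusted p = 0.0001), and S100a11 stood at 0.21 (SE 0.21, adjusted p = 0.433). Tchh was 22.3-fold higher in WENR-minus here, given as a description because these libraries chose it. The Scramble-sgRNA and Cdx2-sgRNA comparisons share no library, but they share mice and medium.

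In proximal Cdx2-sgRNA organoids only 2 of the 10 genes, Sprr1a and S100a6, were called higher, and 6.4% of all genes were called. A further 5 genes had an unadjusted p under 0.05. Sprr1a rose 50-fold (log2 5.64, SE 0.66, adjusted p = 0.0011) and S100a6 by 1.28 (SE 0.24, adjusted p = 0.00677). Without Tchh and Hrnr the median was 0.78, beside −0.03 over all genes. S100a10 stood at −0.89 (SE 0.29, adjusted p = 0.0695) and S100a1 at −0.41 (SE 0.23, adjusted p = 0.274), where both had risen with the control guide. S100a14 (0.69, adjusted p = 0.115), S100a16 (0.80, adjusted p = 0.108), S100a13 (1.21, adjusted p = 0.078), S100a11 (0.76, adjusted p = 0.0334) and Tchh (1.66, SE 1.05, adjusted p = 0.331) were not called. With a replicate block by culture, which pairs the media of a culture, Tchh was called (1.42, adjusted p = 0.0161). Leaving out 1 library moved the count to between 1 and 4.

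**Figure D3:**
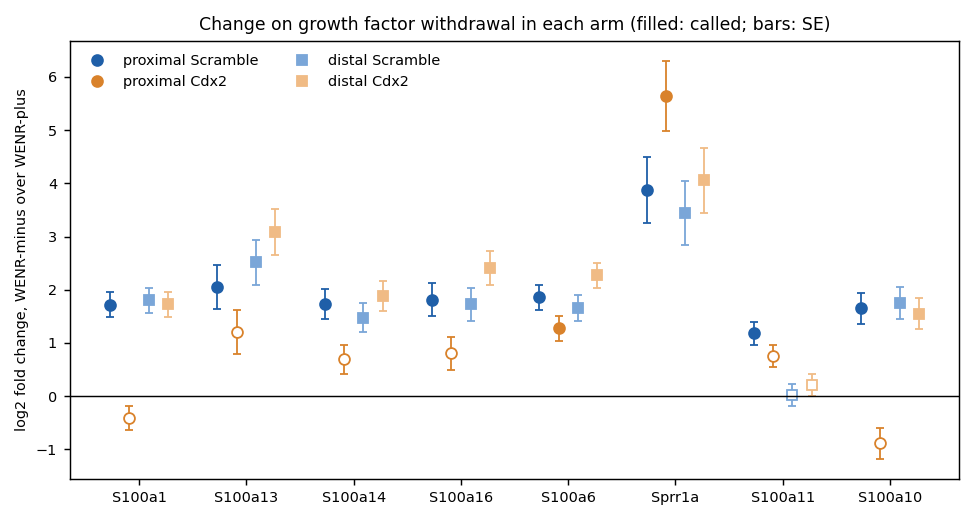
Log2 fold change of WENR-minus over WENR-plus for each gene in the 4 pairings of region and guide. Bars are standard errors and filled points were called. Sprr1a lies between 3.44 and 5.64 in every pairing, and S100a10 lies between 1.55 and 1.75 in all pairings but proximal Cdx2-sgRNA, where it is at −0.89.

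The test of that difference, the withdrawal effect in proximal Cdx2-sgRNA less that in proximal Scramble-sgRNA, called 2 of the 10 genes, with 3.6% of all genes called. They were S100a10, at −2.53 on the log2 scale (SE 0.42, edgeR adjusted p = 0.0159), and S100a1, at −2.12 (SE 0.33, adjusted p = 0.0138). S100a14 (−1.04, adjusted p = 0.144), S100a16 (−1.01, adjusted p = 0.203) and Sprr1a (1.76, SE 0.80, adjusted p = 0.232) did not pass. With no filter on low counts S100a14 (−1.08, edgeR adjusted p = 0.00755) and S100a16 (−1.05, adjusted p = 0.0117) were called. So were Sprr1a (1.725, adjusted p = 3.18e-06) and Tchh (1.35, adjusted p = 0.0224) in that setting. Both calls were lost, with little change in size, without either library of proximal Scramble-sgRNA WENR-plus: S100a10 then stood at −2.51 (adjusted p = 0.0624) and −2.61 (0.064), and S100a1 at −2.15 (0.0537) and −2.16 (0.0536). Without replicate 1 of proximal Scramble-sgRNA WENR-minus the adjusted p of S100a10 was 0.0558.

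The guide was compared next. In proximal organoids without niche factors 5 of the 10 genes were called between Cdx2-sgRNA and Scramble-sgRNA, 2 higher and 3 lower, where 21.2% of all genes were called. The median of the 8 genes other than Tchh and Hrnr was −0.33, beside 0 over all genes. Of the 3 skin-type genes Tchh and Sprr1a were called higher, and the S100 genes that were called were lower. Tchh (17.3-fold, log2 4.12, SE 1.21, edgeR adjusted p = 0.0237) and Sprr1a (4.23-fold, log2 2.08, SE 0.56, adjusted p = 0.0156) were higher. S100a1 (−1.26, SE 0.23, adjusted p = 0.00205), S100a10 (−1.21, SE 0.30, adjusted p = 0.0098) and S100a16 (−1.03, SE 0.31, adjusted p = 0.025) were lower. With RLE scaling and with DESeq2 S100a16 fell just below 2-fold (−0.99 in both) and was not called. S100a13 (−0.72, adjusted p = 0.193), S100a11 (0.35), S100a14 (0.13) and S100a6 (0.06) did not pass, and Hrnr had 0 reads in Scramble-sgRNA against 0 and 6.

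Most of these calls were lost when a single library was left out. Without replicate 2 of proximal Cdx2-sgRNA WENR-minus none of the 5 genes was called: Tchh then stood at 1.01 (adjusted p = 0.547), Sprr1a at 1.34 (0.137), S100a1 at −0.92 (0.0107), S100a10 at −0.86 (0.0697) and S100a16 at −0.84 (0.153). That library also had the highest sum of leukocyte markers, whose part in these results was not tested. Without replicate 1 all 5 were called, at 5.05, 2.58, −1.68, −1.66 and −1.24 in the same order. Without replicate 1 of proximal Scramble-sgRNA WENR-minus the calls of Tchh (3.69, adjusted p = 0.142) and S100a16 (−0.71, adjusted p = 0.177) were lost, and without its replicate 2 those of Tchh (4.88, adjusted p = 0.079) and Sprr1a (1.63, adjusted p = 0.109). All signs were kept, and the clone of replicate 2 had the larger difference for each of the 5.

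With niche factors 2 of the 10 genes were called in proximal organoids, both higher after Cdx2-sgRNA, where 15.9% of all genes were called. The median of the 8 genes other than Tchh and Hrnr was 0.70, beside −0.05 over all genes. The called genes were S100a10 (2.51-fold, log2 1.33, SE 0.30, adjusted p = 0.0082) and S100a14 (log2 1.17, SE 0.27, adjusted p = 0.0104). S100a1 (0.87, SE 0.23, adjusted p = 0.0194) and S100a11 (0.77, SE 0.21, adjusted p = 0.0201) passed the p threshold below 2-fold. S100a6 stood at 0.64 (adjusted p = 0.0673), Tchh at 2.73 (SE 1.19, adjusted p = 0.117), Sprr1a at 0.32, S100a13 at 0.12 and S100a16 at −0.02. S100a10 and S100a1 thus had the opposite sign to their difference in WENR-minus. Without replicate 1 of proximal Scramble-sgRNA WENR-plus the calls of S100a10 (1.31, adjusted p = 0.0525) and S100a14 (1.22, adjusted p = 0.0592) were lost, and without replicate 1 of proximal Cdx2-sgRNA WENR-plus they stood at 1.01 (adjusted p = 0.0561) and 0.70 (adjusted p = 0.0869). S100a14 was also not called without replicate 2 of the Scramble-sgRNA group (1.17, adjusted p = 0.0646).

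In distal organoids the guide values are those that chose the set, and 5.25% of all genes were called in WENR-minus and 0.262% in WENR-plus. In WENR-minus Tchh was 213-fold higher in Cdx2-sgRNA. Hrnr had 222 and 35 reads in Cdx2-sgRNA against 1 and 0 in Scramble-sgRNA, most of them in replicate 1 of Cdx2-sgRNA. The other log2 differences were 1.75 for Sprr1a, 1.03 for S100a16, 0.98 for S100a13, 0.76 for S100a6, 0.68 for S100a14, 0.20 for S100a10, 0.19 for S100a11 and 0.08 for S100a1. In WENR-plus they were 3.35 for Tchh and 1.14 for Sprr1a, and between 0.01 and 0.41 for the 7 S100 genes. Hrnr had 10 and 0 reads there against 0 and 0. The summed squamous markers were also higher in distal Cdx2-sgRNA, at 36.9 and 69.9 CPM against 3.62 and 6.74 in Scramble-sgRNA in WENR-minus. In WENR-plus they stood at 54.3 and 78.2 against 5.81 and 14.8. Unlike Tchh and Hrnr, they were thus no higher in distal Cdx2-sgRNA without niche factors than with them. The part of these markers in the distal values was not tested. At the lower end of the set, S100a1 and S100a11 differed by little and are members by position.

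**Figure D4:**
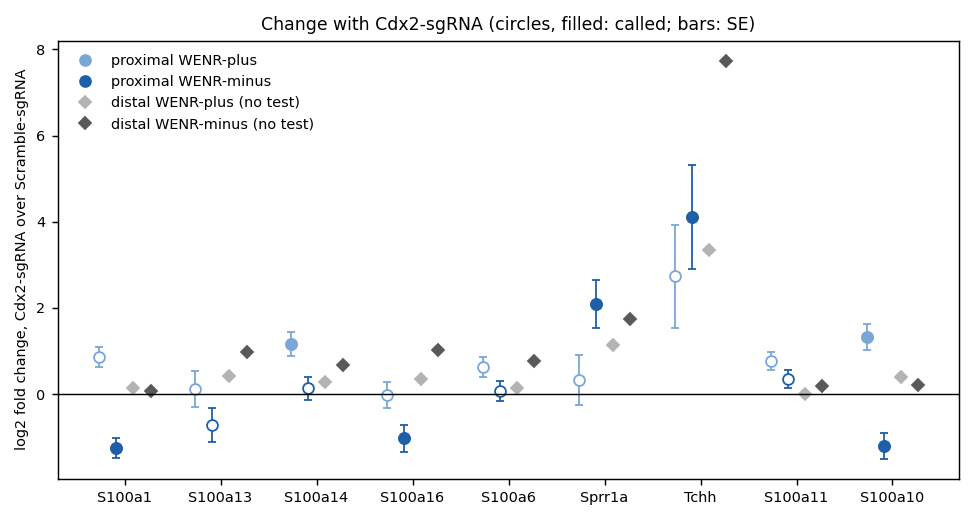
Log2 fold change of Cdx2-sgRNA over Scramble-sgRNA for each gene by region and medium. Bars are standard errors, filled points were called, and diamonds mark distal organoids, where no test was made. Tchh reaches 7.74 in distal WENR-minus, and S100a10 changes from 1.33 in proximal WENR-plus to −1.21 in proximal WENR-minus.

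Between regions few of these genes were called in control organoids. In Scramble-sgRNA WENR-plus 0 of 8 members were called by edgeR (1.75% of all genes were called, 1 of the 8 had an unadjusted p under 0.05, and DESeq2 called 0), with a median of −0.04. In Scramble-sgRNA WENR-minus 1 of 8 was called, S100a11, higher in proximal by 1.23 (SE 0.21, adjusted p = 0.00516), with 6.08% of all genes called, and the median of the 8 was −0.08 beside 0.08 over all genes. Its call was lost without replicate 1 of proximal Scramble-sgRNA WENR-minus (0.91) and without replicate 2 of distal Scramble-sgRNA WENR-minus (1.17, adjusted p = 0.0501).

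In Cdx2-sgRNA organoids the regions differed more widely. Without niche factors 6 of 8 members were called, with a median of −1.06 (proximal over distal), where 34.6% of all genes were called and their median was 0.13. S100a16 stood at −2.63 (SE 0.32, adjusted p = 7.3e-05), S100a13 stood at −1.78, S100a1 at −1.58, S100a14 at −1.08 and S100a10 at −1.04, while S100a11 was higher (1.39, adjusted p = 0.000298). S100a10 lost its call without replicate 1 of distal Cdx2-sgRNA WENR-minus (−0.75, adjusted p = 0.109) and without replicate 2 of the proximal group (−0.71, adjusted p = 0.0844). With niche factors 2 of 8 were called, with a median of 0.34, where 17% of all genes were called. S100a10 was higher in proximal (1.40, SE 0.30, adjusted p = 0.00544) and S100a16 stood at −1.02 (adjusted p = 0.0287). The call of S100a16 was lost without replicate 2 of proximal Cdx2-sgRNA WENR-plus (−0.56, adjusted p = 0.155) and without either distal library (−0.85, adjusted p = 0.148, and −1.14, adjusted p = 0.0562), and with RLE scaling, no filter, length-scaled counts and DESeq2 it fell below 2-fold (−0.973 to −0.999).

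The rest of the chromosome 3 cluster was mostly silent, and 14 of 56 further genes passed the filter, some of them only through the group in which they were high. Ivl, involucrin, a scaffold of the cornified envelope, had 89 and 2106 reads in proximal Cdx2-sgRNA WENR-minus against 0 and 3 in Scramble-sgRNA. The ratio was 798 (95% exact interval 273 to 3870, counting error only), with most of the Cdx2-sgRNA reads from replicate 2. Rptn, repetin, a relative of Tchh and Hrnr, had 967 and 822 reads against 4 and 4 (log2 7.94, SE 0.63, edgeR adjusted p = 6.26e-06), and both Ivl and Rptn stayed called without either Cdx2-sgRNA library. S100a7a, a psoriasin relative, went the other way (−6.50, adjusted p = 0.000782). With the near-identical Sprr2a1 to Sprr2a3 counted as 1, and without genes that passed the filter only through a compared group, 2 of 9 cluster genes were higher and 4 lower, beside 21.2% of all genes called. These counts were chosen after the values were seen. Crnn, cornulin, one of the 4, was at 0 reads in Cdx2-sgRNA and at least 1.38-fold higher in Scramble-sgRNA, and lost its call without either Cdx2-sgRNA library.

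In distal Cdx2-sgRNA WENR-minus Rptn was called higher among the further cluster genes, with 101 and 89 reads against 1 and 0 (ratio 215, 95% exact interval 38.2 to 8550), where 5.25% of all genes were called. Tchhl1, trichohyalin-like 1, a relative of Tchh, had 89 and 97 reads there and at most 2 reads in the other 14 libraries. It passed the filter only through that group, so its reads are given as a description with no test. In WENR-minus Rptn was thus high in Cdx2-sgRNA of both regions. In distal WENR-plus edgeR called 0 further cluster genes, with 2 at an unadjusted p under 0.05 and 0.262% of all genes called. In proximal WENR-plus, where 15.9% of all genes were called, Rptn was higher (2.44, adjusted p = 0.00932), a call lost without replicate 1 of either proximal WENR-plus group (1.98, adjusted p = 0.085, and 1.73, adjusted p = 0.0677), while S100a7a and Crnn were lower.

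The small proline-rich genes Sprr2a1, Sprr2a2 and Sprr2a3 are near-identical copies, so their reads were also summed, a choice made after the values were seen. In that sum proximal Scramble-sgRNA went from 143.5 and 276.5 CPM in WENR-plus to 876.6 and 1704 in WENR-minus, and proximal Cdx2-sgRNA from 127.7 and 119.4 to 108.5 and 71.6. The sum therefore rose with the control guide (2.62, adjusted p = 0.00736) and stood at −0.46 after Cdx2-sgRNA (adjusted p = 0.653), and the guide difference in WENR-minus was −3.84 (SE 0.63, adjusted p = 0.000908). Sprr1a, their relative, rose with either guide. In distal organoids the sum rose with either guide, by 3.50 (adjusted p = 0.00104) and 4.24 (adjusted p = 0.000242). The test of the difference in proximal organoids gave −3.08 (SE 0.81, adjusted p = 0.0557).

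**Figure D5:**
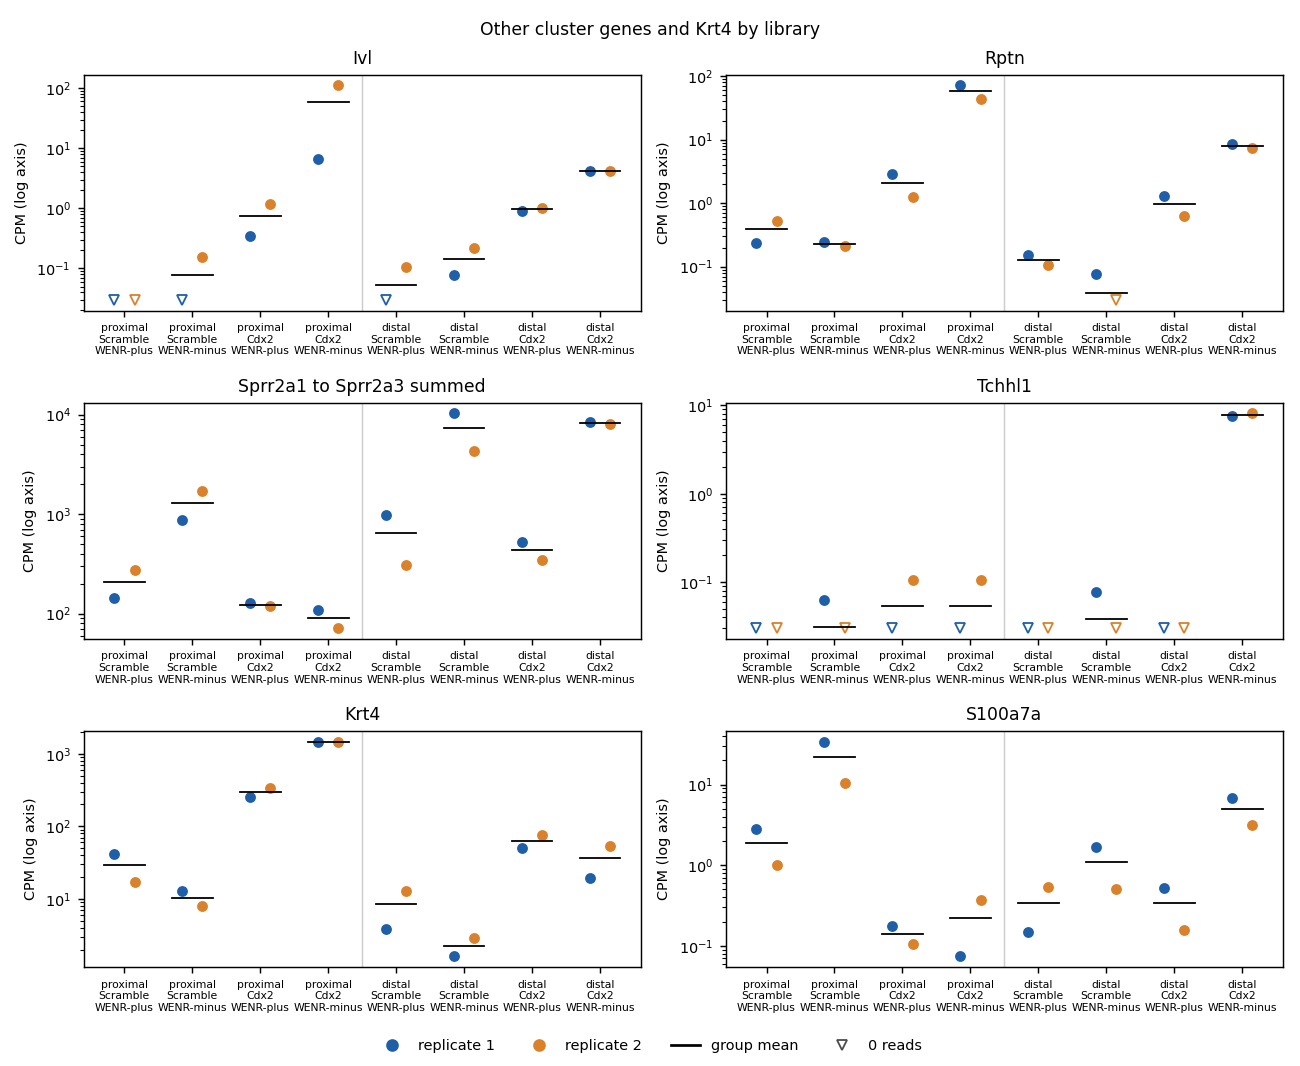
Level of further genes of the cluster and its pathway in each library, in CPM on a log axis, by group. Blue and orange points are replicates 1 and 2, lines are group means, and an open triangle at an arbitrary low position stands for 0 reads. Rptn is high in Cdx2-sgRNA of both regions in WENR-minus, and the Sprr2a sum is low, at 108.5 and 71.6 CPM, in proximal Cdx2-sgRNA WENR-minus.

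Genes that build the cornified envelope but lie elsewhere were read from a list of 22, of which 11 passed the filter. In proximal WENR-minus 6 were higher and 1, Grhl3, lower after Cdx2-sgRNA, beside 21.2% of all genes called. Tgm1, the transglutaminase of the envelope, had 79 and 417 reads against 0 and 1 (ratio 541, 95% exact interval 96.7 to 21400), Sbsn, suprabasin, had a ratio of 13.5 (interval 5.9 to 37.8), Zfp750, a regulator of epidermal differentiation, stood at 3.27 (adjusted p = 0.000471) and Tgm5 at 2.37 (adjusted p = 0.0213). Without replicate 2 of the Cdx2-sgRNA group only Tgm1 and Zfp750 of the 7 were still called, and both were called without replicate 1 too. Tgm5 also lost its call without either Scramble-sgRNA library. In distal WENR-minus 3 were higher, beside 5.25% of all genes called, namely Tgm5 (3.42, adjusted p = 0.0181), envoplakin Evpl (1.53, adjusted p = 0.0103) and periplakin Ppl (1.20, adjusted p = 0.0476). Tgm5 (2.97 to 4.05) and Ppl (0.90 to 1.56) lost their calls without any 1 of the 4 libraries, and Evpl (1.19 to 1.54) without 3 of them, every one but replicate 1 of Cdx2-sgRNA. In proximal WENR-plus 2, Tgm1 and Cdsn, were higher after Cdx2-sgRNA and 1, Grhl3, lower, beside 15.9% of all genes called. With length-scaled counts Cdsn (3.29, edgeR adjusted p = 0.0537) and Grhl3 (−2.05, adjusted p = 0.0505) were not called there. In distal WENR-plus none was called by edgeR (3 at an unadjusted p under 0.05), beside 0.262% of all genes called. Krt2, Klk5, Klk7, Dsg1a and Krtdap, of the upper epidermis, had 0 reads in all libraries. The squamous markers given above were high in the same proximal libraries as Ivl and Tgm1, and their part in these results was not tested.

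Withdrawal of niche factors raised 3, 3, 5 and 5 of the 11 envelope genes in proximal Scramble-sgRNA, proximal Cdx2-sgRNA, distal Scramble-sgRNA and distal Cdx2-sgRNA, and lowered 1, Zfp750, in distal Scramble-sgRNA (−1.33, adjusted p = 0.0415), a call lost without any 1 of its 4 libraries (−0.90 to −1.53). Of all genes 17%, 6.4%, 26.4% and 33.1% were called in either direction in the same order. Klf4, a differentiation factor of skin and of the gut, rose in each of the 4, by 2.63, 1.86, 3.43 and 3.55 on the log2 scale. Among the further cluster genes, counted as above, 4 of 11, 2 of 10, 3 of 12 and 5 of 10 rose, and 1, loricrin (Lor), fell in both distal comparisons. In distal Scramble-sgRNA the risers included Prr9 (4.98, adjusted p = 0.000188).

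Binding partners of the S100 proteins were followed in a list of 11, all of which passed the filter. In proximal Scramble-sgRNA 6 rose after withdrawal, where 17% of all genes were called, with Anxa2, the partner of S100a10, at 1.84 (adjusted p = 0.000558) and Ahnak, a giant scaffold bound by that complex, at 1.80 (adjusted p = 0.00357). In proximal Cdx2-sgRNA edgeR called 0 of the 11, with 6 at an unadjusted p under 0.05 and 6.4% of all genes called. Distal Scramble-sgRNA had 3 higher and 1 lower beside 26.4% of all genes, and distal Cdx2-sgRNA 4 higher and 1 lower beside 33.1%, Cacybp, the calcyclin-binding protein, being the lower one (−1.24 and −1.79). Anxa2 stood at 236 and 216 CPM in proximal Scramble-sgRNA WENR-plus and 805 and 812 in WENR-minus, against 587 and 339, then 655 and 607, with Cdx2-sgRNA. As for S100a10, its withdrawal effect differed between the guides (−1.39, SE 0.34, adjusted p = 0.0436), a call lost without 7 of the 8 libraries in turn (−0.94 to −1.49). Plat, the plasminogen activator whose action S100a10 can promote at the cell surface, was higher after Cdx2-sgRNA in proximal WENR-plus (2.61, adjusted p = 0.000767), proximal WENR-minus (1.91, adjusted p = 0.0026) and distal WENR-minus (3.15, adjusted p = 0.00279).

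Colon epithelium markers moved beside these genes. In proximal WENR-minus 4 of 8 were lower after Cdx2-sgRNA, beside 21.2% of all genes called, among them the enterocyte carbonic anhydrase Car1 (−8.88) and Cdx1 (−8.26), and their summed level was 12800 and 12000 CPM against 23300 and 20100. In distal WENR-minus it was 26300 and 25000 CPM against 19100 and 15600, with 0 of 8 called by edgeR, 5 at an unadjusted p under 0.05 and 5.25% of all genes called. Withdrawal raised 5, 3, 6 and 6 of the 8 in proximal Scramble-sgRNA, proximal Cdx2-sgRNA, distal Scramble-sgRNA and distal Cdx2-sgRNA, beside 17%, 6.4%, 26.4% and 33.1% of all genes called in either direction, from sums of 3930 to 5600 CPM in the WENR-plus libraries. The part of these shifts in the S100 values was not tested.

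Among themselves the genes did not form 1 pattern. Across the 16 libraries, which share mice, media and clones, Pearson's r of log2 CPM was 0.907 for Sprr1a with S100a6, 0.897 for S100a6 with S100a13 and 0.886 for S100a1 with S100a10. S100a11 stood apart, at 0.051 with S100a1 and −0.139 with S100a16. Over all genes tested, Dsp (0.984) and Plk3 (0.983) were among the nearest to S100a16, and the nearest to S100a14 was Tmbim1 (0.979), to S100a6 Dusp10 (0.977), to S100a1 Smagp (0.972), to Sprr1a Sema4b (0.970), to S100a13 Tmc4 (0.963), to S100a10 Pdcd6 (0.951), to S100a11 Cstb (0.923) and to Tchh Ccdc181 (0.874).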

How the data were processed

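RNA from 16 mouse colon organoid libraries was quantified by the authors with Salmon 1.1.0 against GENCODE vM23 transcripts, then imported with tximport and tested with DESeq2. Each library's deposited table holds estimated counts per transcript, unscaled. The authors' tables also give TPM and effective lengths, and the deposited TPM were used only to compare levels between genes. Here the estimated counts of 140748 transcripts were summed per gene through GENCODE vM21 names on GRCm38, which matched 139864 transcripts. The 884 others held 0.257% to 0.510% of the counts and were left out. Sums were rounded to whole numbers. All columns of per-sample values were mapped, leaving 0 unused.

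Genes were filtered with filterByExpr, scaled by TMM and tested in edgeR 4.0.16 (R 4.3.3) by the quasi-likelihood test with 1 coefficient per group over all 16 libraries and 8 residual degrees of freedom. P-values were adjusted by Benjamini-Hochberg over 15289 genes. Calls needed an absolute log2 fold change over 1 (a 2-fold change) and an adjusted p under 0.05. The fitting was also run on simulated counts, with the same spread for every gene and a single comparison. That run does not cover genes whose replicates differ widely. Fitted folds were replaced by counts, an exact ratio of counts or a bound where a group had at most 3 reads per library. The exact intervals and the limit of 3 reads for a count of 0 cover counting error only.

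The 10 members and the gene lists (further cluster genes, cornified envelope genes, S100 partners and markers of colon, squamous, hair follicle, fibroblast, endothelial and leukocyte cells) were chosen with earlier results of these data known. All members were named, and up to 4 list genes with the largest change among those called in a comparison. Others named were chosen after their values were seen. The organoids came from 2 mice by the study's methods, which do not tie replicate numbers across guides and regions to a mouse. The correlation of deviations of same-numbered libraries over 28 pairs of groups ran from −0.129 to 0.65, with 18 over 0.1, and was 0.392 to 0.65 between media of a culture. Alternatives were RLE scaling, no filter, no fold threshold, length-scaled counts, the replicate block, DESeq2 1.42.0 and leaving out each library. Upstream sequences came from RefSeq (GRCm38.p6). S100a10 and S100a14 had none in that table.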

Additional observations from a re-analysis of the deposited data

Results flagged for a closer look

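A test of the difference itself separated the response to niche factor withdrawal after Cdx2-sgRNA from that after Scramble-sgRNA in proximal organoids for these genes (edgeR, log2 scale, SE in parentheses, Cdx2-sgRNA less Scramble-sgRNA). S100a1 stood at −2.12 (0.33, adjusted p = 0.0138) and S100a10 at −2.53 (0.42, adjusted p = 0.0159). Of the further genes, Anxa2 stood at −1.39 (0.34, adjusted p = 0.0436) and Sprr2a3 at −2.58 (0.61, adjusted p = 0.041). Reads of Sprr2a3 cannot be told from those of its near-identical copies, and the sum over the copies, at −3.08 (0.81, adjusted p = 0.0557), was not called. Rptn stood at 5.50 (0.86, adjusted p = 0.0138). Among cell type markers Car1 stood at −5.72 (0.54, adjusted p = 0.00147), Epcam at −1.10 (0.23, adjusted p = 0.0294), Vil1 at −1.29 (0.27, adjusted p = 0.0302) and Krt4 at 3.80 (0.86, adjusted p = 0.037). Leaving out each of the 8 libraries in turn, the call was lost in 8 cases for Krt4, 7 each for Anxa2, Epcam and Sprr2a3, 5 for Vil1, 3 for S100a10, 2 for S100a1, 2 for Rptn and 0 for Car1. With 2 libraries a group, no test for a single far library was made.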

How the results depend on the processing

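Counts of members called gave 134 values over all comparisons and alternative settings, and 110 of them stayed within 1.5 times the count reported. Of 1129 values of single members, 1072 kept their side of the threshold, 23 passed it, 34 lost it and none of those called changed sign. Of the values of list genes called in the guide and withdrawal comparisons, leaving out genes fitted at the floor of reads, 1213 kept their call and 132 lost it, with no change of sign. For the regions in Cdx2-sgRNA WENR-plus, 2 calls became 1 with RLE scaling, 1 with length-scaled counts and 1 with DESeq2, S100a16 being the call lost. For the withdrawal effect between guides in proximal organoids, 2 became 6 with no filter. For that effect between regions, 0 became 1 with no filter, with the replicate block by culture and with DESeq2. For the guide in proximal WENR-plus, 2 became 4 with no fold threshold. The replicate block, which pairs libraries of the same number, moved no other count by over 1.5 times. The causes were not tested, except that calls with no fold threshold need only the adjusted p. Leaving out 1 library in turn gave 0 to 5 calls for the guide in proximal WENR-minus, 0 to 3 in proximal WENR-plus, 7 to 8, 1 to 4, 7 to 7 and 7 to 7 for withdrawal in proximal Scramble-sgRNA, proximal Cdx2-sgRNA, distal Scramble-sgRNA and distal Cdx2-sgRNA, 0 to 1 and 0 to 0 for the regions in Scramble-sgRNA WENR-minus and WENR-plus, 5 to 6 and 1 to 2 in Cdx2-sgRNA WENR-minus and WENR-plus, and 0 to 3 and 0 to 0 for the differences in withdrawal between guides and between regions. S100a16 in proximal WENR-minus fell below the 2-fold threshold with RLE scaling and DESeq2 (−0.99 in both). Where 1 replicate of a group was left, its spread was taken from the other groups. With 2 mice a group, values that differ between the mice are known with little precision.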
